A study of Drosophila melanogaster with 8 samples.

Results

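The Dpr and Beat genes encode the immunoglobulin-domain surface and secreted proteins by which Drosophila neurons recognise their partners. Members were taken by symbol, as every gene of the count tables whose name starts with dpr and a digit or with beat-, which gave 33 of 16727 genes: 19 Dpr genes (dpr2 to dpr20) and 14 Beat genes. The libraries were made from total RNA of pooled heads of adult flies aged 1 to 2 weeks. There were 4 libraries labelled Top3b26, from a fly line whose Top3beta allele was made by remobilizing a P-element, and 4 labelled w1118, the white-eyed laboratory strain used as the control. Top3beta encodes topoisomerase 3 beta, an enzyme that acts on both DNA and RNA. The design asks which transcripts differ between heads of the mutant and of the control. The sex of the flies is not given in the sources used here, and the mutant is written as homozygous in the study's text without this being stated for these libraries. The methods speak of independently prepared sets of RNA, fewer than the 4 repeats of a genotype here, and the labels do not say that the repeats came from separate cultures, so the p-values may measure only the spread between these libraries.

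Dpr proteins (defective proboscis extension response, named after dpr1, which is needed for salt aversion) sit on the neuronal surface and bind proteins of a second immunoglobulin family, the Dpr-interacting proteins or DIPs. Each type of neuron carries its own combination of Dprs and DIPs, and matched pairs across a synapse take part in partner choice and cell survival, best known in the fly optic lobe. Beat proteins (beaten path) form a parallel system: beat-Ia, the founding member, is secreted by motor axons and lets them leave their bundle by weakening adhesion, and Beat proteins bind the Sidestep (Side) proteins of target cells.

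Gene counts totalled 4816757 to 6685891 in the libraries labelled Top3b26 and 3301976 to 7591510 in those labelled w1118, and a level below is a count per 1e6 of that total (CPM). Top3beta itself (X, 6284138 to 6287990, dm6) was at 91.6, 79.9, 44.4 and 42.3 CPM in the libraries labelled Top3b26, against 34.04, 40.6, 27.8 and 23.8 CPM in those labelled w1118. The mutated gene was thus at a higher level in every library that carries the mutant label (log2 fold change 0.90, adjusted p = 0.16 by edgeR's quasi-likelihood test, Benjamini-Hochberg over all genes). The adjusted p was 0.013 with the replicate number as a block, 0.0017 with a term for replicates 1 and 2 against 3 and 4 and 0.021 in DESeq2. It was 0.18 in limma voom, 0.15 with library totals and 0.19 with an exon-length offset. Tested within a replicate set at a time, Top3beta was higher in both, with an adjusted p of 3.7e-05 for the first set (replicates 1 and 2) and 0.0051 for the second. Since there is a single count per gene, it is not known which of its exons were read. Replicates 1 and 2 of the libraries labelled Top3b26 stood apart from the rest: 14 photoreceptor markers, among them the main rhodopsin ninaE, summed to 3480 and 3188 CPM there and to 27689 and 33828 CPM in replicates 3 and 4, against 51331, 56326, 40956 and 37667 CPM in the libraries labelled w1118. None of these 14 markers was at 0 in any library. A gene is called where its adjusted p was 0.05 or less and it differed by 1.5-fold or more. Within replicates 1 and 2, 13 of the 14 were called lower in the libraries labelled Top3b26 (median log2 fold change −3.93), and within replicates 3 and 4, 7 were called lower and 1 higher (median −0.57). The 12 neuron markers, among them elav and nSyb, summed to 14933 to 17706 CPM in the libraries labelled Top3b26 and 14456 to 15847 CPM in those labelled w1118. Within replicates 1 and 2, 3 of these 12 had a positive log2 fold change (median −0.14, 1 called lower), and within replicates 3 and 4, 11 of 12 (median 0.14, 0 called by edgeR). For these reasons each comparison is given over all 8 libraries, within replicates 1 and 2, and within replicates 3 and 4.

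Of the 33 members, 32 were transcribed at a level that could be tested, with counts in single libraries between 67 (dpr6) and 2547 (dpr12). The exception was beat-IIIa (2L, 17131024 to 17173118, plus strand), which had 0 counts in all 8 libraries. All of its 4457 exon bases are also annotated as exons of CG34106 on the same strand, and CG34106 had 0 counts as well. A read from exons that 2 genes share cannot be given to either by its position, so these zeros do not show that beat-IIIa was silent, and 3 counts would have been 0.395 to 0.909 CPM. The genes annotated as dpr1 and dpr21 are listed under other symbols, dpr and CG42596, and are not among the 33. Their levels are given at the end.

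Per kb of exon, which allows genes to be compared, the Dpr family spanned a wide range. The mean level over the 8 libraries was 81.8 ± 7.32 CPM per kb for dpr7 (SD, n = 8), 64.6 ± 8.99 for dpr12, 47.8 ± 12.1 for dpr9 and 36.1 ± 7.79 for dpr14, and the level fell off to 8.15 ± 3.04 for dpr16, 7.92 ± 1.32 for dpr2 and 3.52 ± 0.677 for dpr6, a 23.2-fold span. The Beat family was more even, with a 4.14-fold span between beat-IIa at 42.7 ± 9.41 CPM per kb and beat-Vc at 10.3 ± 2.41. beat-VII (29.9 ± 5.21) and beat-VI (28.0 ± 3.87) came next to beat-IIa. The SD ranges of adjacent genes in this Beat order overlap, as do those of dpr9 and dpr14. Library by library, beat-IIa was above beat-VII and dpr9 above dpr14 in each of the 8. In the middle of the Dpr order, dpr18, dpr19, dpr4 and dpr8 lay between 29.2 and 30.4 CPM per kb and could not be ordered beyond their spread.

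**Figure D1:**
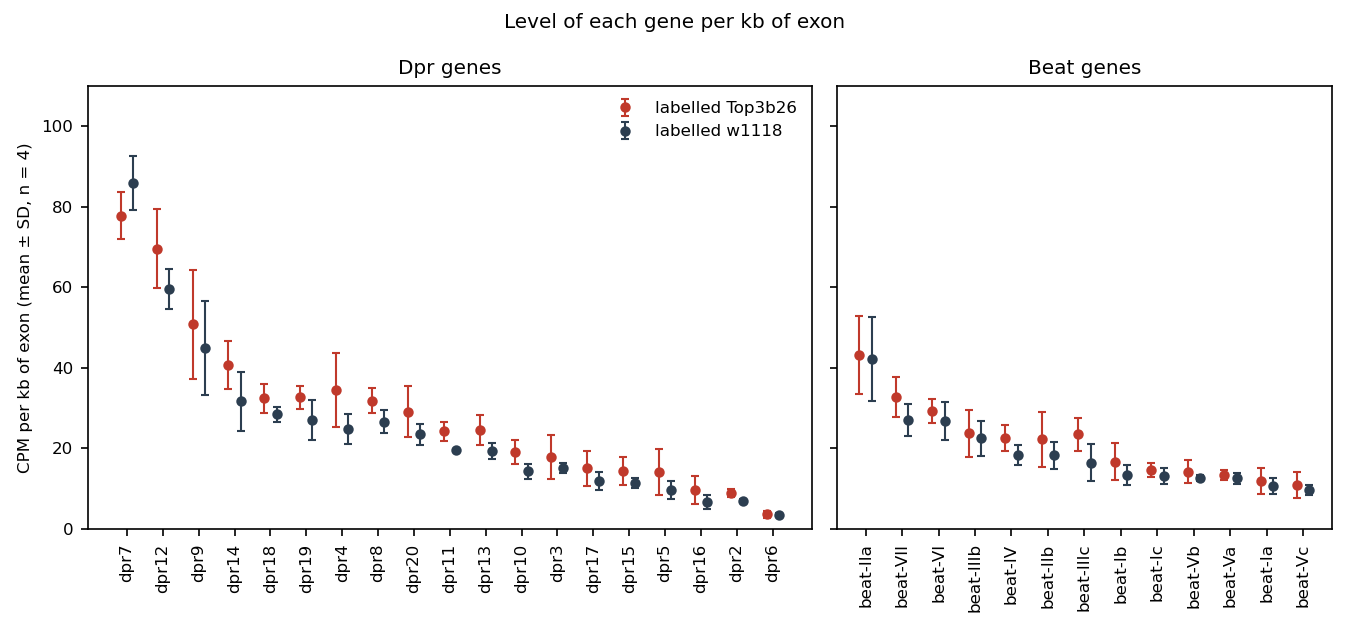
Mean level of each of the 32 detected genes in CPM per kb of exon (vertical axis, SD over 4 libraries as bars), Dpr genes on the left and Beat genes on the right, with libraries labelled Top3b26 in red beside those labelled w1118 in dark blue. dpr7, dpr12 and dpr9 lead the Dpr genes shown, beat-IIa leads the Beat genes, and the SD bars of the 2 genotypes overlap or nearly meet for most genes.

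No Dpr or Beat gene passed these criteria between the genotypes over the whole set of libraries. Over all 8 libraries 0 of the 32 tested members were called by edgeR, where 0.914% of all 9633 tested genes were called. DESeq2 and limma voom also called 0 members, where they called 232 and 86 of these genes. At an unadjusted p of at most 0.05, 2 members were higher in the libraries labelled Top3b26 (dpr10 and beat-IIIc) and 0 lower, where 5.03% of all genes were higher. The 95% interval of the fold change lay within 2-fold in either direction for 32 of 32 members and within 1.5-fold for 26 of 32. Of all 9633 tested genes, 7405 and 4103 had intervals within these limits. With the replicate number as a block, 0 members were called, where 3.82% of all genes were called.

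Most fold changes of the Dpr genes were nevertheless above 0. In the libraries labelled Top3b26 over those labelled w1118, 17 of 19 Dpr genes had a positive log2 fold change and their median was 0.17, a 1.13-fold difference, with a range of −0.27 (dpr7) to 0.42 (dpr5). Of the 13 tested Beat genes 10 were positive, with a median of 0.04 and a range of −0.09 (beat-IIa) to 0.39 (beat-IIIc). The Beat values were unstable: 7 of 13 were positive with an exon-length offset, and the median was 0.0076 without Top3b26 replicate 1 and 0.14 without Top3b26 replicate 4. Over all 9633 tested genes 48.9% were positive and the median was −0.01. These medians are after scaling by TMM factors, which set the bulk of genes to no change. Without those factors the median of all genes moved to 0.12, that of the Dpr genes to 0.31 and that of the Beat genes to 0.18, so the Dpr median stood 0.18 above that of all genes under either scaling, and the Beat median 0.05 and 0.06 above it.

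**Figure D2:**
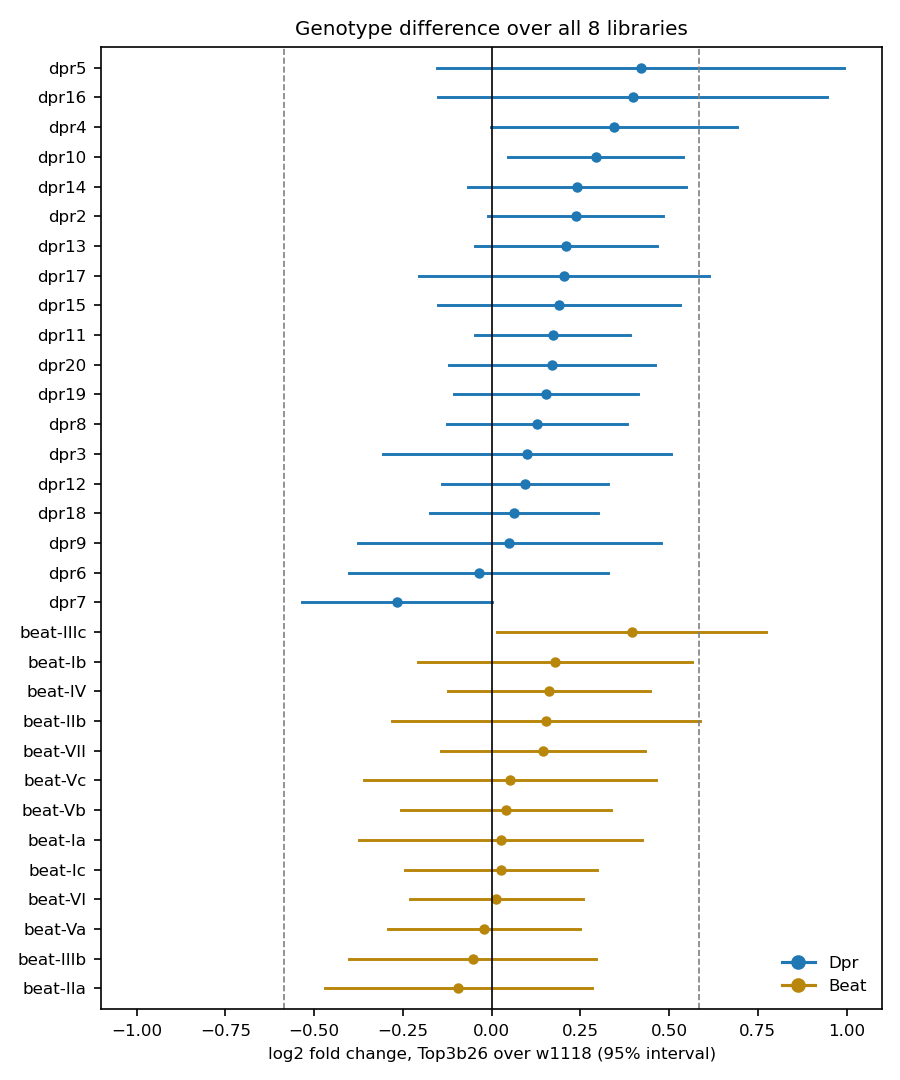
Log2 fold change of each tested gene, libraries labelled Top3b26 over those labelled w1118 (points, horizontal axis) with its 95% interval (lines), Dpr genes above in blue and Beat genes below in gold, each sorted by value. Dashed lines mark 1.5-fold; the intervals of dpr10 and beat-IIIc are the only ones that lie wholly above 0, and none lies wholly below.

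Of the Dpr genes dpr5 had the highest fold change, followed by dpr16 (given below) and then dpr4, a neighbour of dpr5 on 3R. dpr5 (3R, 11499984 to 11505951, plus strand) was at 35.4, 35.7, 18.7 and 15.6 CPM in the libraries labelled Top3b26, against 21.4, 21.5, 15.6 and 13.4 CPM in those labelled w1118. Its genotypes overlapped, and in both the first 2 replicates were the higher ones (log2 fold change 0.42, SE 0.25, adjusted p = 0.55). dpr4 (3R, 11533483 to 11542949, minus strand), which lies 27532 bases away, was at 123, 131, 81.4 and 77.7 CPM in the libraries labelled Top3b26, against 84.4, 82.4, 67.5 and 62.0 CPM in those labelled w1118. Here too replicates 1 and 2 were above all others, while replicates 3 and 4 fell inside the control range (log2 fold change 0.35, SE 0.15, adjusted p = 0.41). An antisense RNA, CR45056, overlaps 469 bases (15.7%) of the dpr4 exons on the opposite strand, and without a stated strand setting their reads cannot be told apart. The antisense RNA was at 20.8, 26.0, 12.9 and 11.7 CPM in the libraries labelled Top3b26, against 12.8, 12.7, 11.8 and 8.69 CPM in those labelled w1118. Its log2 fold change was 0.50 (adjusted p = 0.43), with 0.73 in replicates 1 and 2 (adjusted p = 0.032) and 0.16 in replicates 3 and 4 (adjusted p = 0.68).

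Dpr6 and Dpr10 are the ligands of DIP-alpha, a pairing known from motor neurons and optic lobe neurons. dpr10 (3L, 10147454 to 10186108) was at 77.9, 75.4, 59.4 and 58.3 CPM in the libraries labelled Top3b26, against 50.5, 60.0, 46.2 and 45.6 CPM in those labelled w1118. The groups overlapped only through w1118 replicate 2, and the log2 fold change was 0.29 (95% interval 0.05 to 0.54, unadjusted p = 0.025, adjusted p = 0.31). dpr6, only 8094 bases from dpr10 and the lowest Dpr gene per kb, was at 24.2, 30.1, 19.1 and 18.5 CPM in the libraries labelled Top3b26, against 26.6, 20.3, 20.5 and 18.6 CPM in those labelled w1118 (log2 fold change −0.04, adjusted p = 0.96). The receptor DIP-alpha (CG32791) had a log2 fold change of −0.29 (adjusted p = 0.71).

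Dpr11, Dpr15, Dpr16 and Dpr17 are ligands of DIP-gamma. The best known is Dpr11, which is made by yellow-type R7 photoreceptors and meets DIP-gamma on the Dm8 neurons they contact. dpr11, named here for that role after its values were seen, was at 121, 121, 110 and 98.4 CPM in the libraries labelled Top3b26, against 89.9, 91.5, 93.1 and 90.4 CPM in those labelled w1118. Its groups did not overlap in CPM but did after TMM scaling (log2 fold change 0.17, adjusted p = 0.51). In CPM the 2 libraries with the lowest photoreceptor marker sums were the ones in which dpr11 was highest. That order did not hold after TMM scaling, and the relation of dpr11 to photoreceptor content was not tested. dpr16 (3R, 5150908 to 5170121) was at 38.1, 36.0, 19.1 and 19.2 CPM in the libraries labelled Top3b26, against 23.0, 25.1, 14.8 and 15.3 CPM in those labelled w1118. Both genotypes split by replicate set and overlapped (log2 fold change 0.40, SE 0.24, adjusted p = 0.55), and 118 bases of its exons lie opposite those of cno. dpr17 (3R, 12094876 to 12111420) was at 85.5, 81.7, 56.5 and 44.8 CPM in the libraries labelled Top3b26, against 59.4, 64.2, 43.4 and 45.7 CPM in those labelled w1118 (log2 fold change 0.20, SE 0.18, adjusted p = 0.69). dpr15, which lies 27413 bases from dpr17, had a log2 fold change of 0.19 (adjusted p = 0.65). DIP-gamma (CG14521) was at 71.6, 71.9, 50.9 and 42.8 CPM in the libraries labelled Top3b26, against 55.7, 52.7, 42.1 and 37.4 CPM in those labelled w1118, with overlapping groups (log2 fold change 0.21, adjusted p = 0.64).

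Dpr12 is carried by mushroom body gamma neurons and binds DIP-delta on dopamine neurons. dpr12 (2R, 5804712 to 5860831), the Dpr gene with the highest counts, was at 349, 381, 301 and 278 CPM in the libraries labelled Top3b26, against 306, 294, 265 and 256 CPM in those labelled w1118. The groups overlapped (log2 fold change 0.09, 95% interval within 1.5-fold, adjusted p = 0.76), and DIP-delta (CG34391) had a log2 fold change of 0.10 (adjusted p = 0.82).

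Of the remaining Dpr genes, dpr7 had the lowest fold change. It lies on chromosome 4 (247124 to 253329, minus strand) and was at 124, 105, 121 and 122 CPM in the libraries labelled Top3b26, against 122, 145, 125 and 129 CPM in those labelled w1118. Top3b26 replicate 2 was the low library and w1118 replicate 2 the high one, and the groups overlapped (log2 fold change −0.27, 95% interval −0.54 to 0.00, adjusted p = 0.41). dpr9 (3R, 15054930 to 15077206) was at 313, 287, 207 and 173 CPM in the libraries labelled Top3b26, against 262, 269, 172 and 164 CPM in those labelled w1118, where the replicate sets differed more than the genotypes (log2 fold change 0.05, adjusted p = 0.95; the sign turned under 2 of 11 other settings and in 4 of 12 fits with libraries left out). dpr14 (X, 7903704 to 7908286) was at 187, 168, 146 and 135 CPM in the libraries labelled Top3b26, against 138, 157, 105 and 96.0 CPM in those labelled w1118, again with overlap (log2 fold change 0.24, adjusted p = 0.52).

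dpr2 was the member whose genotypes did not overlap under either scaling. It lies on 2L (10917015 to 10964153) and was at 30.5, 28.9, 24.9 and 24.2 CPM in the libraries labelled Top3b26, against 23.4, 21.2, 19.5 and 19.9 CPM in those labelled w1118. The log2 fold change was 0.24 (95% interval −0.01 to 0.48, adjusted p = 0.42). In CPM, 2 of 32 members (dpr2 and dpr11) were higher without overlap and 0 lower, where 7.64% of all tested genes were higher and 2.58% lower. After TMM scaling only dpr2 remained, where 3.67% of all tested genes were higher. dpr13 (2R, 17975122 to 18007902) was at 90.3, 91.4, 71.4 and 68.7 CPM in the libraries labelled Top3b26, against 67.8, 59.7, 69.6 and 56.1 CPM in those labelled w1118, and its groups overlapped through w1118 replicate 3 (log2 fold change 0.21, adjusted p = 0.50). The other Dpr genes, dpr8, dpr18, dpr19 and dpr20, had log2 fold changes between 0.06 and 0.17 with adjusted p from 0.63 to 0.86.

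**Figure D3:**
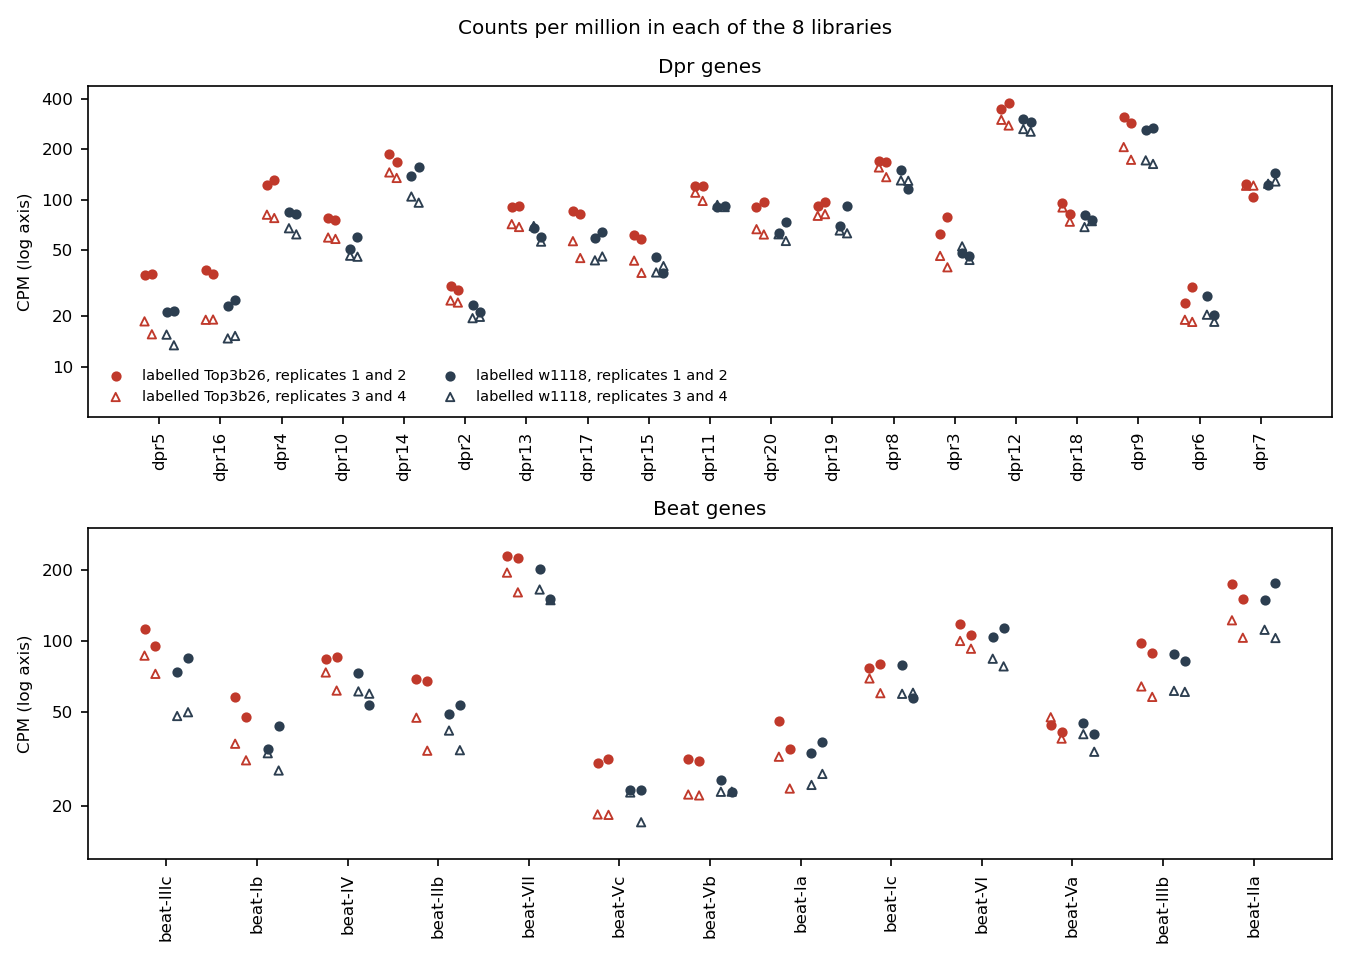
CPM of each gene in each library on a log axis, Dpr genes above and Beat genes below, ordered by fold change. Libraries labelled Top3b26 are red and stand left of those labelled w1118 in dark blue; filled circles are replicates 1 and 2 and open triangles replicates 3 and 4. For dpr5, dpr16 and dpr4 the circles of both genotypes lie above the triangles.

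Among the Beat genes beat-IIIc had the highest fold change. It lies on 2L (17187637 to 17260734, minus strand), 14519 bases from beat-IIIa, and was at 112, 94.7, 86.6 and 72.5 CPM in the libraries labelled Top3b26, against 73.9, 84.5, 48.1 and 49.9 CPM in those labelled w1118. In each replicate set both libraries labelled Top3b26 were above both labelled w1118, and pooled the groups overlapped (log2 fold change 0.39, 95% interval 0.02 to 0.77, unadjusted p = 0.043, adjusted p = 0.38). With replicates 1 and 2 against 3 and 4 as a term in the fit its adjusted p was 0.040 at a fold change still below 1.5. Its family neighbour beat-IIIb had a log2 fold change of −0.05 (adjusted p = 0.92).

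The most abundant Beat genes per kb did not separate the genotypes. beat-IIa (3R, 17320004 to 17366119), a ligand of Side-IV, was at 173, 151, 122 and 103 CPM in the libraries labelled Top3b26, against 149, 175, 111 and 103 CPM in those labelled w1118 (log2 fold change −0.09, adjusted p = 0.87, with the opposite sign under 1 of 11 other settings and in 2 of 12 fits with libraries left out). beat-VII (3R, 26645282 to 26681966) was at 227, 223, 194 and 160 CPM in the libraries labelled Top3b26, against 201, 150, 165 and 148 CPM in those labelled w1118 (log2 fold change 0.15, adjusted p = 0.69). beat-VI (3R, 28418208 to 28474814), a ligand of Side-II, was at 118, 105, 99.9 and 92.6 CPM in the libraries labelled Top3b26, against 103, 113, 84.0 and 78.0 CPM in those labelled w1118 (log2 fold change 0.01, adjusted p = 0.98, with the opposite sign under 2 of 11 other settings and in 5 of 12 fits with libraries left out). All 3 pairs of groups overlapped. The founding gene beat-Ia and its cluster neighbours beat-Ib and beat-Ic had log2 fold changes of 0.03, 0.18 and 0.03, and the ligands of Side-VI, beat-Va, beat-Vb and beat-Vc, had −0.02, 0.04 and 0.05. beat-IIb and beat-IV had 0.15 and 0.16, and the smallest adjusted p among these 8 Beat genes was 0.65.

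Summed over the family, the Dpr transcripts reached 2171, 2152, 1718 and 1564 CPM in the libraries labelled Top3b26, against 1732, 1750, 1472 and 1419 CPM in those labelled w1118. The means were 1901 ± 307 CPM in the libraries labelled Top3b26 and 1593 ± 172 CPM in those labelled w1118 (SD, n = 4 each), a ratio of 1.19 that was 1.24 within replicates 1 and 2, 1.14 within replicates 3 and 4 and 1.09 over all libraries after TMM scaling. Beat transcripts summed to 1168, 1082, 915 and 777 CPM in the libraries labelled Top3b26, against 979, 936, 777 and 724 CPM in those labelled w1118, a ratio of 1.15 that was 1.17 and 1.13 within the sets and 1.05 after TMM scaling. The pooled genotypes overlapped for both families, and within each set both libraries labelled Top3b26 were above both labelled w1118, except that the Beat sums of Top3b26 replicate 4 and w1118 replicate 3 were alike at 777 CPM. After TMM scaling this no longer held in replicates 3 and 4: Top3b26 replicate 4 was at 1588 for the Dpr genes, against 1602 and 1595 in w1118 replicates 3 and 4, and at 789 for the Beat genes, against 845 and 814. Photoreceptor markers took 0.319 to 5.63% of the counts of single libraries, and their part in these ratios was not tested. In heads, fewer cells of a type and less RNA per cell cannot be told apart.

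**Figure D4:**
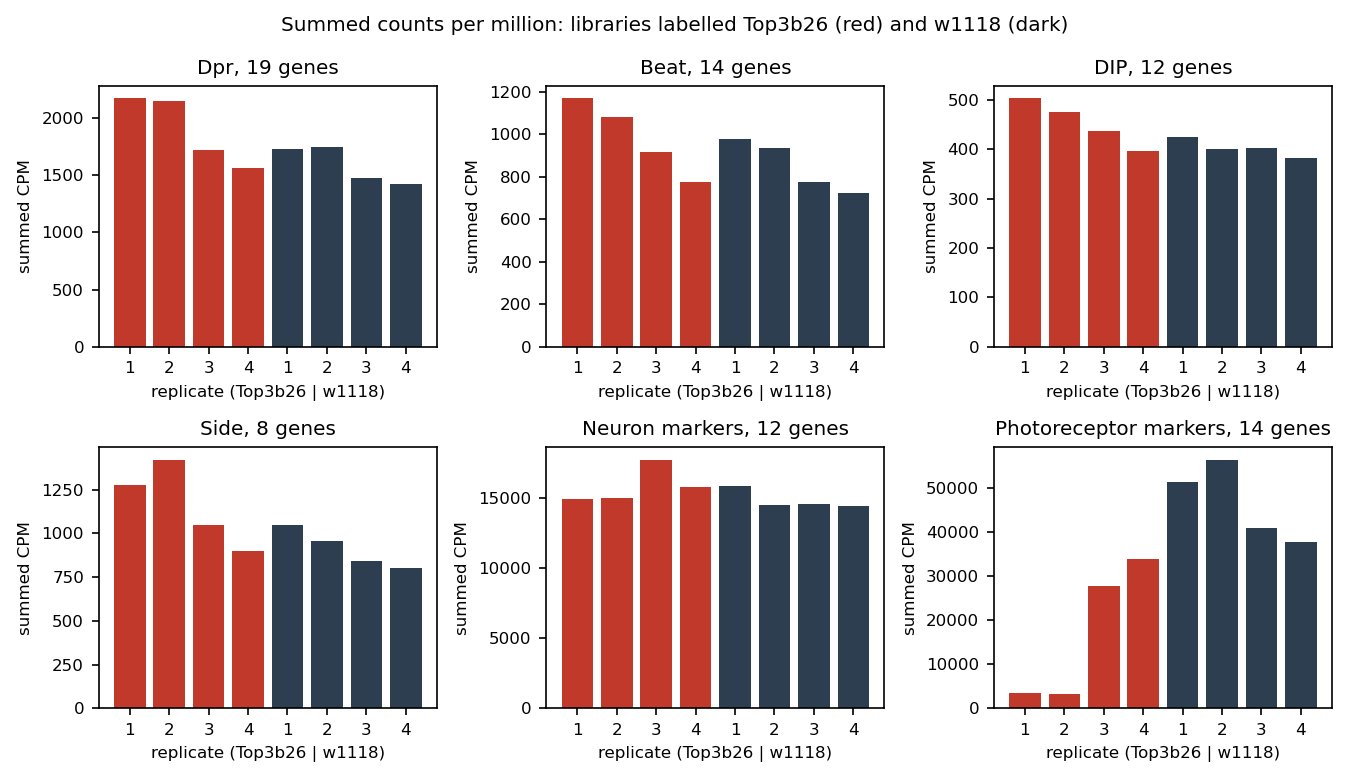
Summed CPM in each library for the Dpr, Beat, DIP and Side genes and for neuron and photoreceptor markers, with the 4 libraries labelled Top3b26 in red left of the 4 labelled w1118 in dark blue. Dpr sums run between 1564 and 2171 CPM in red and between 1419 and 1750 CPM in dark blue, while photoreceptor markers fall to 3188 CPM in red and stay at 37667 CPM or more in dark blue.

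The members also differed between the replicate sets within a genotype. After TMM scaling the Dpr genes were higher in replicates 1 and 2 than in replicates 3 and 4 for 17 of 19 genes in the libraries labelled Top3b26 (median log2 difference 0.21) and for 12 of 19 in those labelled w1118 (median 0.04). The Beat genes were higher for 12 of 13 in the libraries labelled Top3b26 (median 0.32) and 11 of 13 in those labelled w1118 (median 0.18). Of all 9633 tested genes, 4968 were higher in the libraries labelled Top3b26 (median 0.02) and 4853 in those labelled w1118 (median 0.0047). The size of the set difference exceeded that of the genotype difference for 10 of 19 Dpr and 10 of 13 Beat genes. Pooled, that was 20 of 32 members, a share like that of all tested genes (6262 of 9633). The median size of the set difference was 0.17 for the Dpr genes, beside 0.19 for the genotype difference, and 0.32 beside 0.05 for the Beat genes. Over all tested genes it was 0.29 beside 0.18, so the Dpr genotype size and the Beat set size were near those of all genes. The 10 muscle markers also differed between the sets, with sums of 6903 and 6813 CPM in replicates 1 and 2 and 15574 and 16480 CPM in replicates 3 and 4 of the libraries labelled Top3b26, and of 4755, 5486, 12027 and 11458 CPM in those labelled w1118. None of these markers was at 0 in any library, and their part in the members' set differences was not tested.

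Within replicates 1 and 2, where photoreceptor markers were low in the libraries labelled Top3b26, 18 of 19 Dpr genes had a positive log2 fold change with a median of 0.27, and 9 of 13 Beat genes with a median of 0.21. All 9686 genes tested there had a median of 0.0050, with 50.5% positive. edgeR called 0 members, where it called 10.5% of all genes, and DESeq2 called 0, where it called 719 of the 9686. By an adjusted p of 0.05 or less without the fold criterion, dpr4 (log2 fold change 0.46, adjusted p = 0.030) and dpr5 (0.58 against the 0.585 of 1.5-fold, adjusted p = 0.036) were higher, 2 of 32 members where 5.39% of all genes were higher. With the replicate number as a block the smallest adjusted p of any member was 0.062. At an unadjusted p of at most 0.05, 8 members were higher, all of them Dpr genes, and 1 lower (dpr7, log2 fold change −0.37), where 12.1% of all genes were higher and 15.0% lower.

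Within replicates 3 and 4 the Dpr genes were nearer to the rest, with 15 of 19 positive and a median of 0.07, and the Beat genes had 6 of 13 positive and a median of −0.0049. With an exon-length offset the Dpr count in this set was 11 of 19 and the median 0.0094. All 9656 genes tested there had a median of 0.01, with 51.1% positive. edgeR called 0 members, where it called 7.48% of all genes, and DESeq2 called 1, beat-IIIc, where it called 544 of the 9656. By an adjusted p of 0.05 or less without the fold criterion, beat-IIIc (log2 fold change 0.58, adjusted p = 0.0062) and dpr14 (0.38, adjusted p = 0.024) were higher, 2 of 32 members where 3.09% of all genes were higher. At an unadjusted p of at most 0.05, 4 members were higher (dpr10, dpr14, dpr19 and beat-IIIc) and 0 lower, where 9.94% of all genes were higher and 14.1% lower. dpr4 and dpr5 had log2 fold changes of 0.19 and 0.13 in this set (adjusted p = 0.30 and 0.70).

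The difference between the sets was tested directly by the interaction of genotype and set. dpr3, and no other member, had an adjusted p of 0.05 or less, where 7.08% of all 10038 tested genes did. dpr3 (2L, 2058790 to 2109878, minus strand) was at 62.1, 78.4, 46.1 and 39.4 CPM in the libraries labelled Top3b26, against 48.3, 46.0, 52.6 and 43.6 CPM in those labelled w1118. Its log2 fold change was 0.43 in replicates 1 and 2 (adjusted p = 0.081) and −0.28 in replicates 3 and 4 (adjusted p = 0.21), a difference of −0.74 (SE 0.21, adjusted p = 0.043). That call was lost with RLE factors (adjusted p = 0.054) and without replicate 2, 3 or 4 (adjusted p = 0.20 to 0.25). Over the 19 Dpr genes the difference was positive for 5, with a median of −0.23, and over the 13 Beat genes for 4, with a median of −0.12, against a median of −0.06 for all genes.

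**Figure D5:**
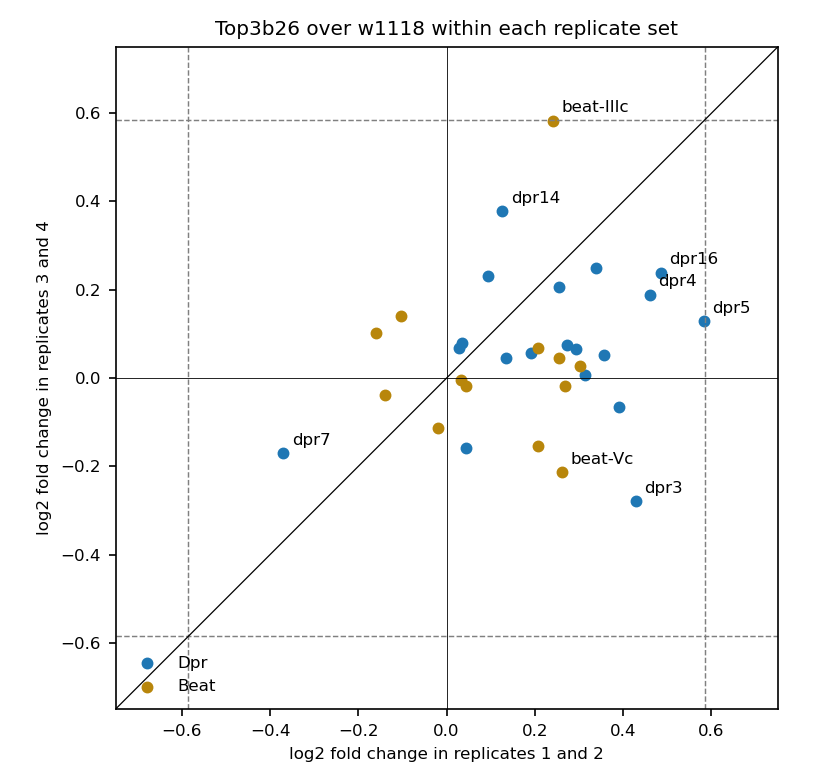
Log2 fold change, libraries labelled Top3b26 over those labelled w1118, within replicates 1 and 2 (horizontal axis) and within replicates 3 and 4 (vertical axis), 1 point per gene, Dpr in blue and Beat in gold. Dashed lines mark 1.5-fold and the diagonal equal values; dpr3 lies at 0.43 and −0.28, dpr5 at 0.58 and 0.13, and beat-IIIc at 0.24 and 0.58.

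The binding partners were followed from lists of 12 DIP and 8 Side genes. Of the 11 DIP genes tested 7 were positive, with a median of 0.10 and a range of −0.55 (DIP-lambda, CG43676, adjusted p = 0.46) to 0.21 (DIP-gamma), and 0 were called over all 8 libraries. DIP-iota (CG11320) was at 0.920 CPM or less in every library and was not tested. The exception within a set was cDIP (CG10824, common Dpr-interacting protein), listed by its name and not as one of the immunoglobulin DIPs. cDIP was at 16.2, 17.4, 9.34 and 13.3 CPM in the libraries labelled Top3b26, against 12.8, 10.9, 24.1 and 23.6 CPM in those labelled w1118. It was called lower in replicates 3 and 4 (log2 fold change −1.15, adjusted p = 0.0010) and had a log2 fold change of 0.33 in replicates 1 and 2 (adjusted p = 0.41), and the sets differed by −1.52 (adjusted p = 0.0023). The high libraries were w1118 replicates 3 and 4, and the other 6 were below both. In the same contrast 6 of 8 tested fat body markers, among them the yolk protein genes, were called lower and 1 higher, and the 9 listed summed to 10324 and 13099 CPM in the libraries labelled Top3b26 and 40053 and 54640 CPM in those labelled w1118 in that set (Fbp1 and Fbp2 were at 0 in several libraries of the other set). Their part in the cDIP difference was not tested.

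All 8 Side genes had a positive log2 fold change, with a median of 0.20, and 0 were called. The range ran from 0.08 for side-V (CG34371, adjusted p = 0.85) to 0.42 for side-VIII (CG12484, adjusted p = 0.31). side-VIII was at 155, 150, 103 and 97.5 CPM in the libraries labelled Top3b26, against 105, 96.9, 72.9 and 70.5 CPM in those labelled w1118, above the control in both sets with a pooled overlap. Within replicates 1 and 2 side-III, side-IV and side-VIII had adjusted p of 0.022, 0.045 and 0.034, and within replicates 3 and 4 the adjusted p of side-VIII was 0.028, each at a fold change below 1.5, where 5.39% and 3.09% of all genes were higher by adjusted p alone in these sets. Over all 8 libraries the adjusted p of side-VIII was 0.0096 with a term for the set and 0.052 with the replicate block. side, the receptor of Beat-Ia, had a log2 fold change of 0.17 (adjusted p = 0.72), side-IV, the receptor of the Beat-II proteins, 0.35 (adjusted p = 0.32), and side-VI, the receptor of the Beat-V proteins, 0.14 (adjusted p = 0.69). A wider list of 45 other neuronal surface genes, among them the Dscams, teneurins and neurexins, had 34 positive, a median of 0.10 and 0 called by edgeR. At an unadjusted p of at most 0.05, 1 gene of the wider list, 2 Side genes and 0 DIP genes were higher, where 5.03% of all genes were.

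Of the 2 Dpr genes listed under other symbols, dpr1 was close to no change and dpr21 lay below the range of the 19 members. dpr1 (symbol dpr) was at 127, 119, 123 and 102 CPM in the libraries labelled Top3b26, against 110, 119, 105 and 97.6 CPM in those labelled w1118, with a log2 fold change of 0.00. dpr21 (CG42596) was at 55.5, 48.9, 52.3 and 42.8 CPM in the libraries labelled Top3b26, against 63.8, 77.5, 55.7 and 56.5 CPM in those labelled w1118. All 4 mutant-labelled libraries were below all 4 control libraries (log2 fold change −0.47, 95% interval −0.74 to −0.20, adjusted p = 0.15). Its adjusted p was 0.024 with a term for the replicate set, 0.041 in DESeq2 and 0.080 with the replicate block, and within replicates 1 and 2 its log2 fold change was −0.57 (adjusted p = 0.014), with the fold change below 1.5 in each of these fits.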

How the data were processed

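RNA was sequenced from 8 head samples, 4 per genotype. The deposited tables hold raw counts of reads for each gene. Per the labels' processing notes, TopHat2 2.1.1, SAMtools 1.8 and FastQC were used with the dm6 build, while the paper names another TopHat version and the Tuxedo suite. The counting tool, annotation and strand setting are not given in the sources used here. The header of 1 deposited file (w1118 replicate 2) says CPM, but its values are whole counts. Of all reads listed, 43.1 to 48.9% matched no feature, 0.56 to 0.96% were ambiguous and 16.6 to 30.4% were not unique, and these stayed out of library totals. Of 16727 symbols 98.6% matched the annotation (Ensembl, dm6), which gave exon lengths and positions.

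Counts were tested in edgeR 4.0.16 (R 4.3.3) with filterByExpr, TMM factors and quasi-likelihood tests, adjusted over all tested genes. Alternatives used DESeq2 1.42.0, limma 3.58.1, other factors, filters and thresholds, exon-length offsets, a replicate block, and left-out libraries. The fits were also run on simulated counts, which held no shift between the replicate sets. They do not show how the fits behave with the shift seen here. The members and lists were chosen with earlier results of these data known. Genes given with every library's values were the 10 members with the largest absolute fold change, the 3 most abundant per kb of each family and those past the interaction test, and others named are said so or given for known roles. Same-numbered libraries of the 2 genotypes deviated together (correlation 0.44 to 0.65 over 4 pairs), as did differently numbered libraries of the same set (mean 0.57). The mean over the same-numbered pairs was 0.55, so these data show a shared replicate set and no closer tie by number within it. The labels give numbers only. Limits on counts of 0 cover counting error only.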

Additional observations from a re-analysis of the deposited data

Results flagged for a closer look

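In 4 of 68 groups of 4 libraries 1 library lay far from the other 3, where about 3.4 such groups come by chance at 1 in 20. dpr7 was at 105 CPM in Top3b26 replicate 2, below the others. beat-Ic (78.8 CPM) and beat-Vb (25.8 CPM) were high in w1118 replicate 1, and beat-Vc (17.1 CPM) was low in w1118 replicate 4.

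The genotype effect differed between replicates 3 and 4 and replicates 1 and 2 for dpr3 (log2 difference −0.74) and for cDIP, CG10824 (−1.52), by the interaction test in edgeR.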

How the results depend on the processing

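Over all 8 libraries 0 members were called under any of 13 alternatives or 12 fits with libraries left out. The 16 members picked by fold change, level or the interaction test stayed on the same side of the threshold in all alternative fits, 368 over the 16 together. The replicate block changed no member's call, but raised the calls among all genes to 368, against 88 without it. Calls among all genes were 539 with a term for the replicate set, 295 with block and exon-length offset, 232 with DESeq2, 66 with the offset and 17 to 61 with libraries left out. With library totals in place of TMM factors the median log2 fold change of the Dpr genes was 0.31 over all libraries, 0.42 within replicates 1 and 2 and 0.18 within replicates 3 and 4. That of the Beat genes was 0.35 within replicates 1 and 2. With an exon-length offset the medians for replicates 1 and 2 were 0.22 (Dpr) and 0.16 (Beat), and for replicates 3 and 4 0.0094 and −0.019, with 16 of 32 members positive.

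Within replicates 1 and 2, RLE factors called 1 member (dpr5), no filter 1 (dpr5) and library totals 3 (dpr4, dpr5 and dpr16), in fits that called 996 of 9686, 1134 of 13605 and 1204 of 9686 genes. Within replicates 3 and 4, DESeq2 and library totals each called 1, beat-IIIc, in fits that called 544 and 714 of 9656 genes, as did the fits without w1118 replicate 4 and without Top3b26 replicate 4. With 1 library left out, which leaves a lone library assumed to vary like the other genotype, calls ranged from 0 to 0 in the first set and 0 to 1 in the second. The Dpr median then ran from 0.26 to 0.27 in the first set and from −0.0026 (without Top3b26 replicate 3) to 0.18 in the second, and the Beat median from 0.057 (without w1118 replicate 2) to 0.21 and from −0.098 to 0.16. In the interaction test RLE factors called 0 members, and leaving out a replicate number called 0 to 1. The causes were not tested.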
